A study of Mus musculus with 10 samples.

Results

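Myc and 37 genes of ribosome production were followed in mouse leukaemia cells recovered from transplanted animals. The 38 genes were taken from a fixed list of names, 3 of them under newer symbols than the array's (Nop56, Nop58 and Nop2, formerly Nol5a, Nol5 and Nol1), and all 38 were measured among 18193 genes. Each was read from its probe set of highest mean. All samples were the same leukaemia, labelled NSTY ALL, of C57BL/6 background, which carried the human p210 bcr/abl fusion gene and a deletion in the Ink4a/Arf locus. Recipients were C57BL/6 mice treated with total body irradiation and 5-fluorouracil. Syngeneic animals (n = 5) then received C57BL/6 marrow and spleen cells, and allogeneic animals (n = 5) received those of C3.SW mice, in both cases with leukaemia cells mixed in. Leukaemia was recovered by flow cytometry after 2 to 3 weeks and passed on, and RNA came from cells sorted on GFP after 3 serial transplants. The sources used here do not give the age of the animals or the way the fusion gene was introduced. They do not say either whether animals of a group shared an earlier leukaemia donor, so p-values rest on the spread among these 10 animals, which may in part be technical.

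Myc is a transcription factor that binds, with its partner Max, to the E-box CACGTG, and drives growth genes in many lymphoid leukaemias. Ribosome production starts in the nucleolus, where RNA polymerase I makes a long precursor RNA. Small nucleolar ribonucleoproteins (snoRNPs) modify it, and assembly factors then cut and fold it into the small and the large ribosomal subunit. Genes for each of these steps are among the known targets of Myc.

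Promoter sequence was examined for the E-box, since this is the site that Myc is known to bind. The RefSeq windows (GRCm38.p6) ran from 250 bases before to 50 bases after each annotated start. A window was found for 31 of the 38 genes, and 7 were without one here (Myc, Srm, Fbl, Bop1, Npm1, Rrs1 and Rrp12). CACGTG, which reads the same on both strands, occurred in 9 of the 31 (29.0%) and in 8.09% of 27025 genes with a window. The related CACGCG, searched also as its reverse complement CGCGTG and with overlaps between motifs allowed, occurred in 8 of the 31 (25.8%) and in 10.5% of genes. A match describes letters only and does not show binding. In 7 of the 9 genes the E-boxes lay just after the start, counted from 1 at its first base. They are shown 5′ to 3′ on the gene's strand, in capitals, with up to 10 bases on each side, because they share this position.
Utp20: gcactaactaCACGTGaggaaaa
Wdr43: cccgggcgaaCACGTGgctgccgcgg
Mybbp1a: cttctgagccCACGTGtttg
Pes1: ctaggcagggCACGTGcgggaggaag
Pno1: tacaaccacgCACGTGttcctct
Nle1: ggttctcctcCACGTGgggacgcagg
Grwd1: gccggagtcgCACGTGtgaaaccgga

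The E-box began at position 3 in Pes1, 18 in Wdr43, 24 in Nle1, 35 in Grwd1, 38 in Utp20 and in Pno1, and 41 in Mybbp1a. The Utp20 stretch was at chr10:88826765-88826787 on the minus strand and that of Wdr43 at chr17:71616222-71616247 on the plus strand. The remaining genes with a match, Cdk4 and Nop2, had it before the start. Their 250 bases upstream are given whole, because Cdk4 held 4 of the 12 E-boxes found. The Cdk4 stretch is chr10:127063285-127063534 and the Nop2 stretch chr6:125131633-125131882, both on the plus strand.
Cdk4: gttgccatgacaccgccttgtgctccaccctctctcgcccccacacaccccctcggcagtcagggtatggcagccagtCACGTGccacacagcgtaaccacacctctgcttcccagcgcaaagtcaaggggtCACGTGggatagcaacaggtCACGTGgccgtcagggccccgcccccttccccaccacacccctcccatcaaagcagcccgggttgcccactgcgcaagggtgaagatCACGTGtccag
Nop2: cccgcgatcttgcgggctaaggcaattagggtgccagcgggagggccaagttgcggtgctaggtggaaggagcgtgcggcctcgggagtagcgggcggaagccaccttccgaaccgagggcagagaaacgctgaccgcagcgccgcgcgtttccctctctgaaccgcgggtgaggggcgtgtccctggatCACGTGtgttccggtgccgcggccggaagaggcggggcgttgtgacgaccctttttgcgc

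The E-boxes of Cdk4 began at -172, -118, -98 and -11, and that of Nop2 at -60. The genes that held an E-box did not stand together in the values described below. Their median difference between groups was -0.09 on the log2 scale against -0.16 for the 22 genes without one, and their median correlation with Myc was 0.481 against 0.548.

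Levels are given as log2 of the quantile-normalised intensity. All 38 genes were above a background limit of 4.5 to 5.32, set from bacterial control probe sets, on every array. For Gapdh, the 3' control probe set was 1.39 to 1.59 times as bright as the 5' one, and the groups overlapped. The lower quartile of the deposited intensities was 18.7 to 19.5 in allogeneic animals 1, 3 and 4 and 13.8 to 14.4 in the other 7, so those arrays stood apart at their dim end. Markers of B-lymphoid progenitors gave a summed linear intensity of 85380 to 88468 in the syngeneic animals. In the allogeneic animals the sum was 87565 to 90293, with 13 of 14 measured markers above background on every array (the most intense was Cd24a). Markers of macrophages and monocytes summed to 24928 to 28500 and 31302 to 34225, with 9 of 18 higher in the allogeneic group, Ctss the brightest, and Itgam, Cd14 and Cx3cr1 not above background on any array. Dendritic markers summed to 1311 to 1954 and 2580 to 3966, with 5 of 7 higher, Itgax not above background on any array, and Bst2, which interferon also induces, raised by 1.37 on the log2 scale (SE 0.18, limma adjusted p = 0.00965). Stromal and endothelial markers summed to 655 to 843 and 797 to 1105, with 10 of 11 higher and Cxcl12 and Lum not above background on any array. Granulocyte markers summed to 1983 to 4922 and 1311 to 7919, T cell markers to 5251 to 6509 and 5584 to 6942, NK cell markers to 1019 to 1510 and 1250 to 2081, and erythroid markers to 122 to 148 and 144 to 183. Among these, Csf3r, Cd8b1, Ncr1, Klrk1, Gzmb, Eomes and Hba-a1 were not above background on any array. In the allogeneic group 7 of 10 granulocyte, 5 of 8 T cell, 5 of 8 NK cell and 3 of 5 erythroid markers were higher. The NK cell marker Gzma, the brightest of its list, differed by 1.06 (SE 0.25, limma adjusted p = 0.0995). The part of other cells in the differences below was not tested. In sorted bulk samples fewer cells of a type and less RNA per cell cannot be told apart.

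Myc itself varied widely within both groups. Its level was 11.35, 11.17, 10.52, 9.23 and 11.34 in syngeneic animals 1 to 5. In allogeneic animals 1 to 5 it was 9.02, 10.3, 10.92, 10.33 and 9.44. The groups overlapped: syngeneic 4 was lower than all but 1 allogeneic animal, and no animal lay between 9.44 and 10.3. The means were 10.72 ± 0.90 and 10 ± 0.76 (SD, n = 5 each). The difference of -0.72 (SE 0.48) did not pass the test (limma adjusted p = 0.476). Without syngeneic animal 4 it was -1.09, without allogeneic animal 1 it was -0.47, and neither passed. The highest level was 5.03-fold the lowest over the 10 animals, the widest range of any of the 38 genes.

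**Figure D1:**
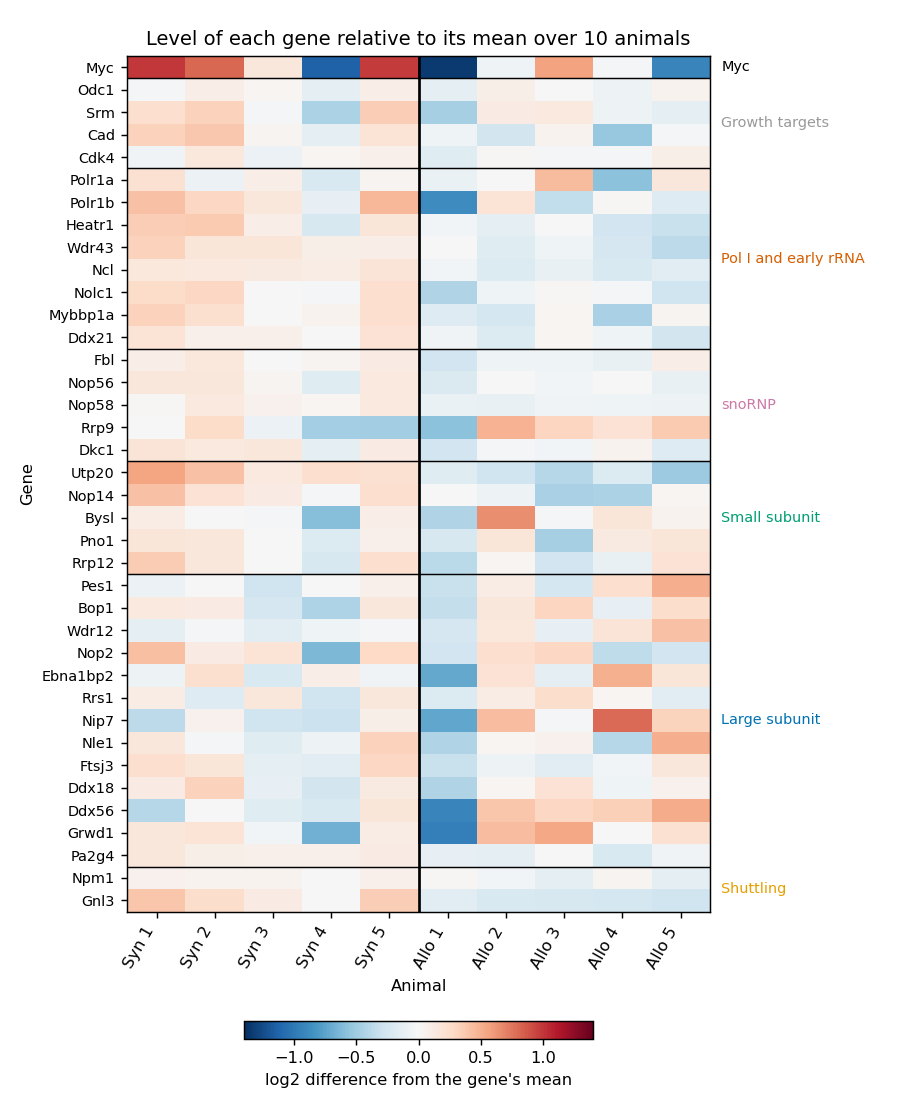
Heat map of Myc and the 37 ribosome biogenesis genes (rows, ordered by role) in 5 syngeneic and 5 allogeneic animals (columns). Colour is the log2 difference from each gene's mean over the 10 animals. Myc spans 9.02 to 11.35, while Npm1 spans 13.36 to 13.56. The column of allogeneic animal 1 is low for most genes of the large subunit, and Polr1a is highest in allogeneic 3. The syngeneic mean is a baseline other than that of the colours. Relative to it, the median of the RNA polymerase I and early rRNA genes is below zero in each allogeneic animal.

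The comparison of allogeneic with syngeneic leukaemia called 0 of the 38 genes at an adjusted p under 0.05 (limma, Benjamini-Hochberg over all genes), where 0.583% of all genes were called. At an unadjusted p under 0.05 there were 8 lower in the allogeneic group and 0 higher, where 7.4% of all genes were lower and 9.47% higher at that level. Of the 8029 genes of mean level above 8, closer to these in brightness, 784 were lower and 627 higher at that level. The difference was below zero for 28 genes and above zero for 10. Its median was -0.15 on the log2 scale, beside 0.01 over all genes and -0.02 over the 8029 genes of mean level above 8. All 5 allogeneic values lay below all 5 syngeneic values for 6 genes (Utp20, Gnl3, Ncl, Wdr43, Nop58 and Pa2g4). The same held for 1.9% of all genes and for 230 of the 8029, while none of the 38 had them all above. These counts come from one set of values and are not separate from one another. Without allogeneic animals 1, 3 and 4 the median was -0.08 and 22 genes were lower, and the median over all genes moved to 0.09.

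The RNA polymerase I and early rRNA genes had the lowest median difference of the roles after Myc itself, at -0.30 over 8 genes. All 8 were below zero, also on the deposited scale and with arrays centred on their median, and 5 had an unadjusted p under 0.05. Of the 8, only Polr1a and Polr1b encode subunits of the polymerase. Polr1a, a large catalytic subunit, was at -0.02 and turned above zero when single animals were left out. Relative to each gene's syngeneic mean, the median of the 8 genes was 0.16, 0.03, -0.04, -0.14 and 0.06 in syngeneic animals 1 to 5. It was -0.19, -0.29, -0.15, -0.37 and -0.39 in allogeneic animals 1 to 5, each below every syngeneic value on this baseline. The closest values, -0.15 in allogeneic 3 and -0.14 in syngeneic 4, were nearly equal. Gene by gene, the allogeneic values all lay below the syngeneic ones for 2 of the 8.

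Ncl encodes nucleolin, an abundant nucleolar protein that binds the precursor RNA. It was at 13.09, 13.08, 13.07, 13.04 and 13.12 in syngeneic animals and at 12.9, 12.75, 12.84, 12.73 and 12.78 in allogeneic ones. The groups did not overlap, and the syngeneic values lay within 0.1 of one another. The difference was -0.28 (SE 0.09, limma adjusted p = 0.169). Wdr43, part of the subcomplex that couples transcription to processing, was at 12.5, 12.35, 12.35, 12.26 and 12.27 and then at 12.18, 12.01, 12.12, 11.95 and 11.82. It too was lower in every allogeneic animal, by -0.33 (SE 0.11, adjusted p = 0.182).

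Mybbp1a, a nucleolar protein that associates with RNA polymerase I, was at 12.99, 12.89, 12.66, 12.71 and 12.9 in syngeneic and 12.48, 12.42, 12.69, 12.21 and 12.7 in allogeneic animals. Its groups overlapped narrowly, through syngeneic 3 and allogeneic 3 and 5 (difference -0.33, SE 0.13, limma adjusted p = 0.240). Nolc1 encodes a phosphoprotein that accompanies snoRNPs in the nucleolus. It was at 12.3, 12.34, 12.05, 12.03 and 12.28 and then at 11.63, 11.99, 12.06, 12.02 and 11.77, with allogeneic 1 lowest (difference -0.30, SE 0.13, adjusted p = 0.265). Polr1b, the second large subunit of the polymerase, was at 9.41, 9.29, 9.16, 8.88 and 9.46 and then at 8.12, 9.19, 8.65, 9.01 and 8.82. The lowest value again belonged to allogeneic 1 (difference -0.48, SE 0.21, adjusted p = 0.280). Heatr1, needed for transcription by the polymerase, and Ddx21, an RNA helicase, differed by -0.30 (SE 0.14) and -0.21 (SE 0.10).

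Among the 5 small subunit genes 4 were below zero and the median was -0.21. Utp20, a scaffold of the small subunit processome, had the largest difference of the 37 genes other than Myc. It was at 10.95, 10.8, 10.53, 10.63 and 10.61 in syngeneic animals and at 10.22, 10.11, 10, 10.2 and 9.89 in allogeneic animals. Every allogeneic value was below every syngeneic one, and the allogeneic level was 0.651-fold the syngeneic (difference -0.62, SE 0.12, limma adjusted p = 0.0593). It passed the threshold in 5 of 20 alternative settings, where the adjusted p ran from 0.0148 to 0.183. Nop14, another processome protein, was at 11.04, 10.83, 10.75, 10.61 and 10.87 and then at 10.63, 10.56, 10.18, 10.19 and 10.66. Allogeneic 1 and 5 lay above syngeneic 4, so the groups overlapped (difference -0.38, SE 0.14, adjusted p = 0.222). Rrp12 was at -0.21 and Pno1 at -0.09, both factors of small subunit maturation. Bysl, another such factor, was at 0.17 (SE 0.21).

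For the 5 snoRNP genes the median was -0.15, with 4 below zero. Fbl, the methyltransferase of box C/D snoRNPs, and their core proteins Nop56 and Nop58 differed by -0.16, -0.13 and -0.15. Nop58 was the one whose groups did not overlap, at 11.39 to 11.52 in syngeneic and 11.27 to 11.33 in allogeneic animals. Dkc1, the pseudouridine synthase of box H/ACA snoRNPs, differed by -0.18 (SE 0.11). Rrp9, a protein of the snoRNP that guides early cleavage, went the other way at 0.31 (SE 0.23), and none of these passed the test.

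The 13 large subunit genes showed no common direction: 5 were below zero, 8 above, and the median was 0.01. That median was -0.03 on the deposited scale and -0.06 with arrays centred on their median, so its sign was not settled. In allogeneic animal 1 the median of the 13 genes relative to each gene's syngeneic mean was -0.39. It was 0.16, 0.14, 0.03 and 0.27 in allogeneic animals 2 to 5. Without allogeneic animal 1 the median difference was 0.18, with 10 of 13 genes above zero. Nip7, a factor of precursor RNA processing, had the highest difference at 0.32 (SE 0.26). Pa2g4, a growth-regulated RNA-binding protein found on precursor subunits, had the lowest at -0.20 (SE 0.09), at 12.83 to 12.92 in syngeneic and 12.55 to 12.77 in allogeneic animals. Pes1, Bop1 and Wdr12 form one complex needed for the large subunit, and they differed by 0.11 (SE 0.17), 0.10 (SE 0.17) and 0.15 (SE 0.14).

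The remaining genes were growth targets and shuttling proteins of the nucleolus. Gnl3 encodes nucleostemin, a GTP-binding protein of the nucleolus. Its levels were 12.63, 12.49, 12.36, 12.24 and 12.59 in syngeneic and 12.09, 12.03, 12.02, 11.99 and 11.96 in allogeneic animals. The groups were separate and the allogeneic values were tight, with an SD of 0.05 against 0.16. The difference was -0.44 (SE 0.11, limma adjusted p = 0.101), which passed the threshold in 4 of 20 alternative settings, where the adjusted p ran from 0.0158 to 0.237. Npm1, nucleophosmin, the gene of highest mean level here, was at 13.55, 13.54, 13.54, 13.49 and 13.56 and then at 13.5, 13.45, 13.36, 13.53 and 13.36. Its groups overlapped and it moved little (difference -0.09, SE 0.09), close to the array maximum of 14.38 where a change can be compressed. Of the growth targets, Cad, which starts pyrimidine synthesis, differed by -0.32 (SE 0.15). Srm and Odc1, enzymes of polyamine synthesis, and the cell cycle kinase gene Cdk4 differed by -0.17, -0.03 and -0.04.

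**Figure D2:**
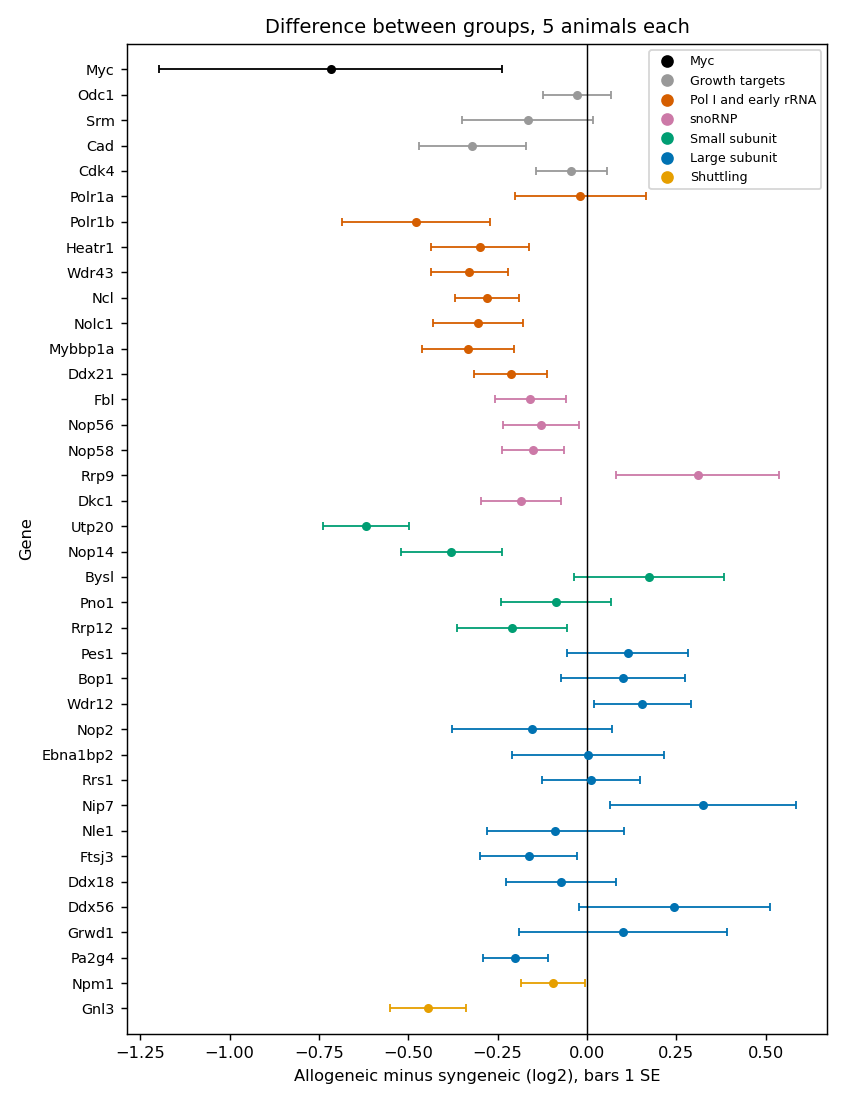
Allogeneic minus syngeneic difference on the log2 scale (x axis) for each gene (y axis), 5 animals per group. Points are limma estimates, bars are 1 SE, and colours give the role. All 8 RNA polymerase I and early rRNA genes lie left of zero, and the 13 large subunit genes lie on both sides. After Myc the points farthest left are Utp20 at -0.62, Polr1b at -0.48 and Gnl3 at -0.44.

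The second comparison asked whether the genes rose and fell with Myc from animal to animal. The median Pearson correlation of the 37 genes with Myc over 10 animals was 0.524, beside 0.013 over all genes, whose 5th and 95th percentiles were -0.586 and 0.675. It was positive for 35 of 37. A correlation of at least 0.5 was reached by 21 of 37 and by 12.5% of all genes. Over the 8029 genes of mean level above 8, which are closer to these in brightness, the median was 0.08 and 18.4% reached 0.5. With group means removed the median was 0.448, beside 0.033 over all genes. This value is a description with no test. It includes allogeneic 1 and syngeneic 4, each the lowest of its group for Myc. The animals share the leukaemia and the array platform, and the genes are not independent of one another.

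No single correlation passed once adjusted. By a 2-sided permutation test of 100000 resamples, 12 of 37 had a positive correlation at an unadjusted p under 0.05, where 6.71% of all genes did, and 13 of 37 did by Spearman's rho, where 5.74% did. After Benjamini-Hochberg adjustment over 18190 genes 0 of 37 passed, as did 0.0% of all genes, and the lowest adjusted p was 0.0979 for r and 0.279 for rho. The limma slope on Myc with group in the model called 0 of 37 as well (1 gene of all, 0.0055%). At an unadjusted p under 0.05 it was positive for 9 of 37 and for 6.62% of all genes.

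Srm, the spermidine synthase gene, was the member closest to Myc, ranked 6 of 18190 genes. Its level was 12.53, 12.62, 12.27, 11.86 and 12.64 in syngeneic and 11.84, 12.41, 12.44, 12.23 and 12.16 in allogeneic animals. Its lowest values were those of allogeneic 1 and syngeneic 4, which also had the lowest Myc. Over the 10 animals r was 0.951 (permutation p = 6e-05, adjusted p = 0.0979) and rho 0.927 (p = 0.00036, adjusted p = 0.279). The limma slope was 0.33 (SE 0.07) log2 units per log2 unit of Myc.

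Nop56 was at 13.16, 13.16, 13.04, 12.83 and 13.14 and then at 12.8, 13.01, 12.96, 13.01 and 12.9. Its whole range was 1.28-fold against 5.03-fold for Myc, yet its order followed that of Myc closely, with r = 0.935 and rho = 0.903 (permutation p = 0.00036 and 0.00078, adjusted p = 0.141 and 0.279). Dkc1 was at 12.64, 12.6, 12.62, 12.32 and 12.58 and then at 12.19, 12.44, 12.42, 12.51 and 12.28. The animals with low Myc (syngeneic 4, allogeneic 1 and allogeneic 5) again held its 3 lowest values, with r = 0.890 and rho = 0.842 (permutation p = 0.00109 and 0.00386, adjusted p = 0.159 and 0.330). Nolc1, with the levels given above, had r = 0.878 and rho = 0.891 (permutation p = 0.00091 and 0.00102, adjusted p = 0.153 and 0.279). Other probe sets of Dkc1 and Nolc1 had much weaker correlations, given below. Nop2, an rRNA methyltransferase, followed at 0.832 and the helicase gene Ddx18 at 0.801.

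By the probe sets used, the 4 genes of lowest correlation were all of the large subunit. Other probe sets of these genes had other correlations, given below. Wdr12 was at 11.64, 11.75, 11.63, 11.72 and 11.76 in syngeneic and 11.54, 11.93, 11.66, 11.96 and 12.19 in allogeneic animals, highest in allogeneic 5 where Myc was low (r = -0.174, rho = -0.042, permutation p = 0.637 and 0.918, adjusted p = 0.933 and 0.989). Pes1, its partner, was at 10.28, 10.35, 10.08, 10.36 and 10.43 and then at 10.04, 10.46, 10.11, 10.59 and 10.87 (r = -0.122, rho = -0.079, permutation p = 0.741 and 0.839, adjusted p = 0.959 and 0.975). Both were highest in allogeneic 5 and lowest in allogeneic 1. Bop1, the third protein of that complex, differed from them with r = 0.609 (permutation p = 0.0634, adjusted p = 0.521).

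Nip7 was at 10.33, 10.75, 10.41, 10.39 and 10.78 and then at 9.97, 11.13, 10.67, 11.49 and 11.01. Ebna1bp2, a nucleolar factor of large subunit assembly, was at 11.32, 11.62, 11.18, 11.49 and 11.35 and then at 10.68, 11.6, 11.26, 11.89 and 11.56. Both were lowest in allogeneic 1 and highest in allogeneic 4, an animal of middling Myc. Their correlations with Myc were 0.198 (rho 0.055) and 0.25 (rho 0.042), with permutation p = 0.582 and 0.504 for r, 0.892 and 0.919 for rho, and adjusted p = 0.917 and 0.891 for r, 0.985 and 0.989 for rho.

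**Figure D3:**
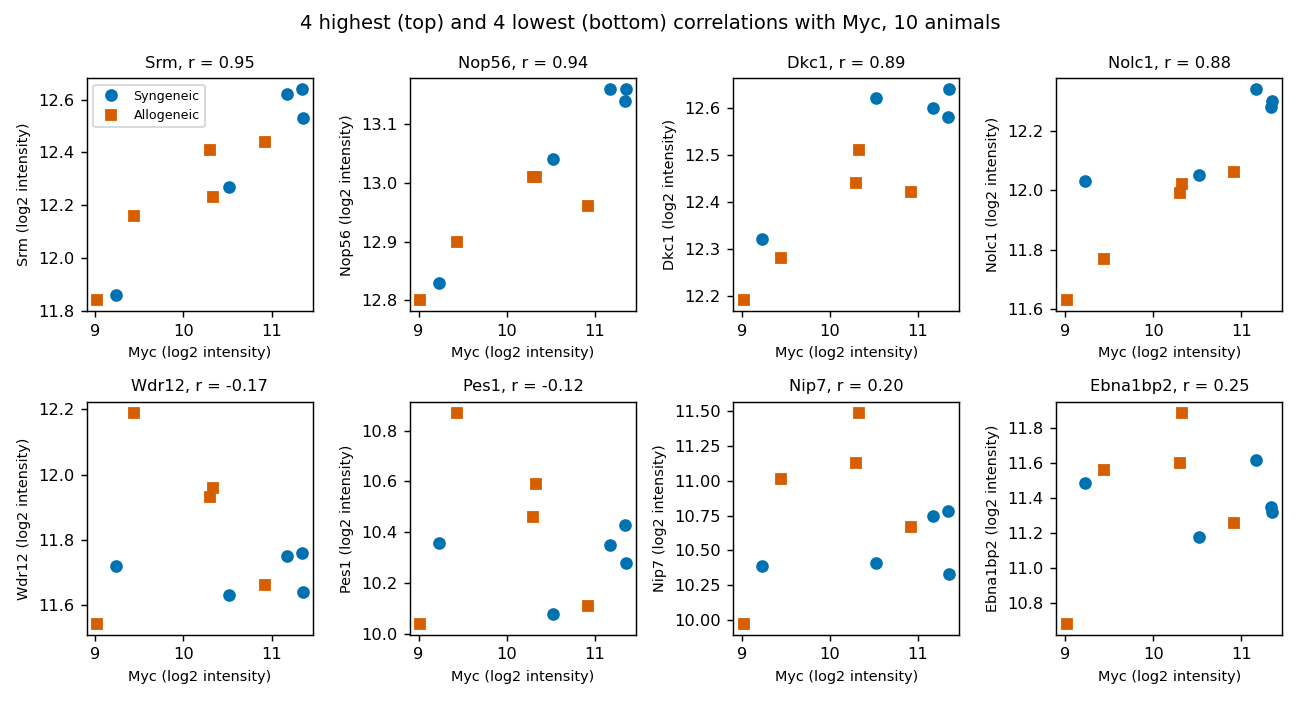
Level of 8 genes (y axes, log2 intensity) against the level of Myc (x axes, log2 intensity) in 10 animals, circles for syngeneic and squares for allogeneic. The upper row holds the 4 genes of highest correlation (Srm, Nop56, Dkc1 and Nolc1, r from 0.951 to 0.878) and the lower row the 4 of lowest (Wdr12, Pes1, Nip7 and Ebna1bp2, r from -0.174 to 0.25). Allogeneic 1 is the leftmost square in every panel and the lowest point in each panel.

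**Figure D4:**
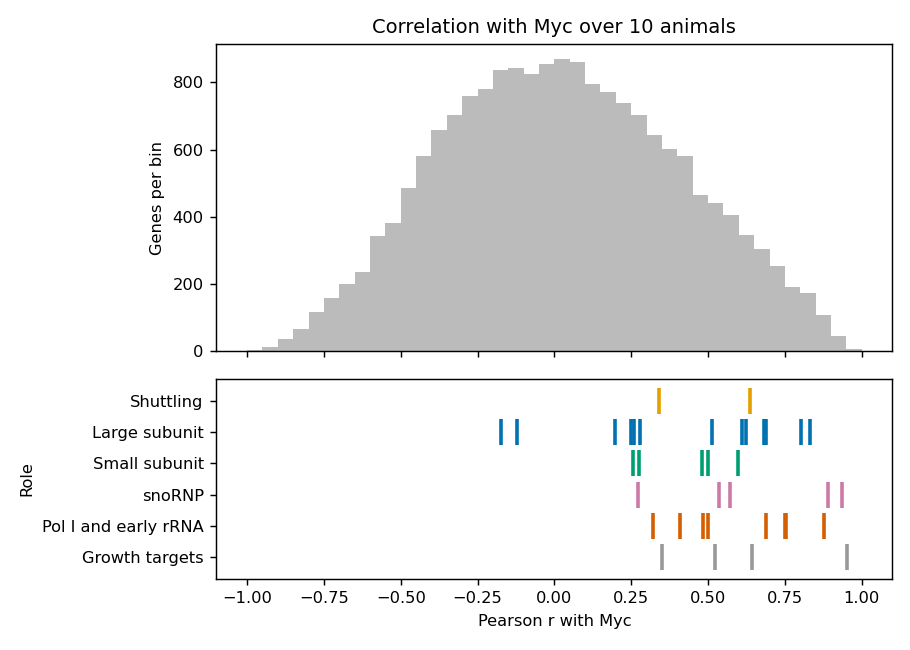
The upper panel is a histogram of Pearson r with Myc over 10 animals for all genes (x axis r, y axis genes per bin). Ticks in the lower panel mark the 37 genes by role (y axis). The ticks centre on 0.524, where all genes centre on 0.013, and those below 0.2 are Wdr12, Pes1 and Nip7 of the large subunit.

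The roles drew apart when the 2 animals farthest from the median of Myc, allogeneic 1 and syngeneic 4, were left out. Over the other 8 animals the median correlation of the 37 genes was 0.385 (all genes -0.085), and 26 of 37 were positive. The 8 RNA polymerase I and early rRNA genes were all positive, with a median of 0.791 in place of 0.593. Nolc1 was at 0.954, Ddx21 at 0.917, Heatr1 at 0.875 and Wdr43 at 0.842. The 13 large subunit genes went from a median of 0.513 to -0.021, with 6 of 13 positive. Wdr12 was at -0.836, Ddx56 at -0.668, Pes1 at -0.656 and Nip7 at -0.544, while Nop2 stayed at 0.739. All of these are values of the probe sets used. Other probe sets of Nolc1, Ddx21, Heatr1, Wdr12, Pes1 and Nip7 had other correlations over all animals, given below. They were not examined over the 8. Longer lists of the same steps did not repeat the contrast between the roles. Over the same 8 animals the median of 15 other RNA polymerase I genes went from 0.466 to -0.1 (7 of 15 positive), and that of 38 other large subunit factors from 0.433 to 0.381 (26 of 38 positive).

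Several single relations rested on those 2 animals. Grwd1, a histone-binding factor of large subunit assembly, went from 0.689 to -0.021 and Bysl from 0.501 to -0.233. Rrp9 went from 0.273 to -0.571 and Odc1 from 0.643 to 0.112. Srm (0.894), Nop56 (0.850) and Dkc1 (0.788) kept a high correlation over the 8 animals. Whether the roles differ from each other in their relation to Myc was not tested.

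**Figure D5:**
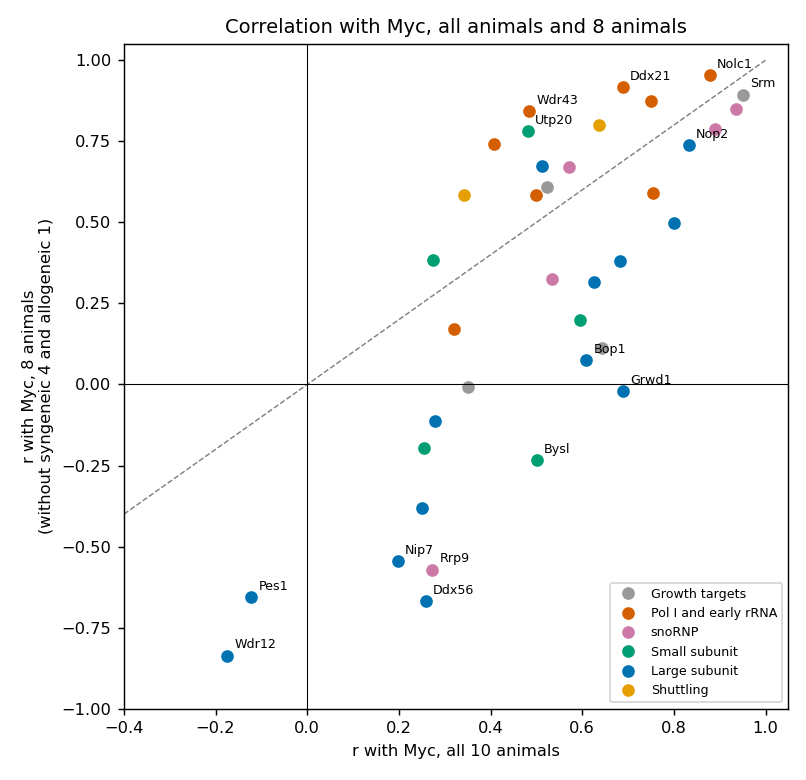
Pearson r with Myc over all 10 animals (x axis) against r over the 8 animals left without syngeneic 4 and allogeneic 1 (y axis), 1 point per gene, coloured by role, with the dashed line marking equal values. RNA polymerase I and early rRNA genes stay positive with a median of 0.791, while large subunit genes spread from -0.836 to 0.739.

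Part of the co-variation coincided with the group difference. The values here are those of the probe sets used, and others of Ncl, Nolc1 and Dkc1 had other correlations, given below. Ncl had r = 0.408 over all animals and -0.006 with group means removed, and Nop14 went from 0.275 to -0.064. Bop1 went the other way, from 0.609 to 0.792, and Grwd1 from 0.689 to 0.825. Utp20 and Wdr43, whose groups did not overlap, had 0.234 and 0.248 within groups. Nolc1 (0.899), Nop56 (0.921), Srm (0.954) and Dkc1 (0.878) varied with Myc inside the groups about as closely as across them.

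The genes most like Myc over the 10 animals, by Pearson r across the whole array, were Gpatch4 (0.982), Patl1 (0.963), Pop1 (0.963), Sigirr (0.959) and Nkrf (0.956), ahead of Srm. None passed the permutation test after adjustment, with adjusted p from 0.0979 to 0.131.

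Further genes of ribosome production, from lists of the same steps, varied in how far they resembled these. Of 38 other large subunit factors measured, 29 were lower in the allogeneic group with a median of -0.16. None passed the limma test, and 6 were lower and 1 higher at an unadjusted p under 0.05, where the shares over all genes were 7.4% and 9.47%, as for the lists below. Their smallest p-values belonged to Brix1 (-0.40, SE 0.09, limma adjusted p = 0.0859), Mdn1 (-0.51, SE 0.15, adjusted p = 0.148) and Rrp1b (-0.62, SE 0.19, adjusted p = 0.160). Of 38 other small subunit factors 27 were lower, with a median of -0.11. None passed, 1 was lower at an unadjusted p under 0.05, and this was Mphosph10, a processome protein, at -0.48 (SE 0.16). Other RNA polymerase I genes did not share the direction of the 8 above: 6 of 15 were lower, 0 passed, 1 was higher at an unadjusted p under 0.05 and the median was 0.03. Among them Znrd1 and Polr1c, smaller polymerase subunits, were at 0.65 (SE 0.24) and 0.32 (SE 0.16), and Ubtf, the factor that opens rRNA genes, at -0.22 (SE 0.13). Of 9 other snoRNP proteins 5 were lower and 0 passed, also at an unadjusted p under 0.05, and Naf1, an assembly factor of box H/ACA snoRNPs, was at -0.34 (SE 0.16). Correlations with Myc in that list ran from -0.756 to 0.922, the highest being that of Naf1, and 6 of 9 were positive.

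The medians over the genes of the ribosomal proteins themselves were close to those of the array as a whole. How near these genes lay to the array maximum of 14.38, where a change can be compressed, was not examined. Of 44 listed genes of cytosolic ribosomal proteins 29 were measured. Among them was Rps16, whose means of 0.93 in syngeneic and 1.57 in allogeneic animals were below the background limit. Over the 29 genes the median difference was 0.00 and the median correlation with Myc -0.047. None passed either limma test, and at an unadjusted p under 0.05 there were 2 of 29 higher and 0 lower in the allogeneic group, where 9.47% of all genes were higher. These were Rps6 and Rpl14, at 0.54 (SE 0.14, limma adjusted p = 0.129) and 0.49 (SE 0.16, adjusted p = 0.186). Of 34 measured Myc targets of nucleotide synthesis, translation and folding, 23 were lower, the median difference was -0.05, and the median correlation with Myc was 0.333 with 26 of 34 positive. Against that direction Nampt, an enzyme of NAD synthesis, was the 1 gene that passed, raised by 0.80 (SE 0.12, adjusted p = 0.0175). Its correlation with Myc was -0.474. Genes that Myc is known to hold down had a median of 0.13 over 8 genes, with 0 passing and 0 at an unadjusted p under 0.05.

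Partners and antagonists of Myc numbered 21, with 13 lower, 8 higher, 0 passing and 4 lower at an unadjusted p under 0.05. Mycn, the other growth-driving member of the family on this list, was at 12.89 in syngeneic and 12.53 in allogeneic animals (difference -0.36, SE 0.16, limma adjusted p = 0.280). Mnt, a Max partner that opposes Myc, differed by -0.40 (SE 0.17) and the kinase gene Pim2 by -0.37 (SE 0.16). Proliferation genes gave medians of 0.02 for 20 S-phase genes and -0.07 for 19 G2/M genes, with 0 passing in either list. At an unadjusted p under 0.05 there were 0 of the former and 4 of the latter, all 4 lower.

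Other probe sets of the same genes gave a mixed picture. The 38 genes had 81 probe sets, 24 genes had several, and 37 probe sets beside those used were above background on every array. Of these, 26 had the same sign of the group difference as the probe set used and 24 the same sign of the correlation with Myc. For Ncl the other 4 probe sets differed by -0.46, -0.31, -0.35 and -0.15, all in the direction of the one used. Its correlation with Myc was 0.408 with the one used and, in the same order, 0.802, -0.026, 0.627 and 0.163 with the others. For Polr1a the other probe sets above background differed by -0.46 and 0.51, and for Ddx21 the other differed by 0.09. For Pa2g4 the other 4 differed by -0.062, 0.083, 0.075 and -0.164. For Ddx21 the correlation was 0.688 with the probe set used and -0.651 with the other, and for Wdr12 -0.174 and 0.597. For Nolc1 it was 0.878 with the one used and 0.199 and 0.342 with the others. For Dkc1 it was 0.890 with the one used and 0.245 and -0.098 with the others, and for Nop56 0.935 and 0.722. Rrs1, a large subunit assembly factor, had 0.683 and 0.916. For Heatr1 the correlation was 0.75 with the probe set used and 0.193 and -0.192 with the others, and for Wdr43 0.485 and 0.395. Pes1 had -0.122 with the one used and 0.432 with the other, and Nip7 0.198 and -0.484. Ebna1bp2 had 0.25 with the one used, 0.742 with another above background on 9 arrays, and 0.012 with another above it on none.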

How the data were processed

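Expression was measured on 10 Affymetrix arrays, 1 per animal, in 5 syngeneic and 5 allogeneic samples. The authors deposited 1 linear intensity per probe set. How they summarised and scaled the values is not stated in the sources used here. Biotinylated cDNA was made with NuGEN kits, per the labels' protocols. Intensities were put on the log2 scale here and quantile normalised, which forces 1 distribution on all arrays. Gene names came from the annotation of the platform (34945 with 1 symbol, 932 with several, 9160 with none), and 1 probe set per gene, that of highest mean, gave 18193 genes with no filter. The background limit was the 95th percentile of 27 bacterial control probe sets on each array. Groups were compared with limma 3.58.1 (lmFit and eBayes) in R 4.3.3. Co-variation was tested by a limma slope with group as a covariate and by permutation in numpy 2.4.6, with ranks from scipy 1.17.1. The number of arrays limits the precision. On simulated data of 18193 genes for the 5 against 5 comparison, limma recovered 71.6% of log2 changes of -1 and 12.4% of those of -0.5, with 7.03% of calls false. For the Myc slope it recovered 19.6% at 0.5 and 0% at 0.25, with 7.14% of calls false. In both simulations the changes were planted only in genes of mean level above 8. The noise was normal and independent between genes, so genes that vary together and unequal arrays were not simulated. All 38 members could be named. Those given sample by sample were Myc, the 8 of smallest p, the 4 highest and 4 lowest correlations and the highest mean. From other lists, up to 3 genes of smallest p per list and the brightest marker of each cell type list were eligible. Bst2, the genes most like Myc and the printed E-box stretches were chosen after their values were seen. The members and lists were chosen with earlier results of these data known. Animal numbers did not pair the groups. The alternatives tried covered normalisation, choice of probe set, low values, array weights, the variance model, the replicate block and leaving out animals.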

Additional observations from a re-analysis of the deposited data

Results flagged for a closer look

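In 6 of the 76 sets of 5 values (38 genes in each group) 1 animal stood apart from the other 4 of its group, by Dixon's test at the 95% level, where chance gives about 1 in 20. Syngeneic animal 4, the lowest of its group for Myc, was low for 4 genes. Its Dkc1 level was 12.32 (others 12.58 to 12.64), Bysl 9.84 (others 10.4 to 10.53), Nop2 10.7 (others 11.45 to 11.75) and Grwd1 10.14 (others 10.78 to 11.01). Allogeneic animal 1, the lowest of its group for Myc, was low for Rrp9 at 9.44 (others 10.22 to 10.5) and for Ddx56 at 8.38 (others 9.6 to 9.83). All values are log2 intensities.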

How the results depend on the processing

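The Myc difference ran from -1.09 to -0.47 over its 20 alternatives, with limma adjusted p from 0.244 to 0.682. The median difference of the 38 genes ran from -0.22 to -0.08 over 19. Genes called by limma for the group difference numbered 0 as reported, 2 with the lower 50% of genes left out (Utp20 and Gnl3), 4 with intensities below 16 raised to 16 (also Ncl and Nop58), 2 with array weights and 3 with a trended, robust variance model. In these 4 settings 2.96%, 1.32%, 3.96% and 1.69% of all genes tested were called. They numbered 0 to 1 when each animal was left out in turn, the 1 being Utp20 without allogeneic animal 1 (-0.65, adjusted p = 0.0289). Adjusted p ran from 0.0148 to 0.183 for Utp20 and from 0.0158 to 0.237 for Gnl3. Over the whole array 106 genes were called as reported, 636 without allogeneic animal 1 and 14 with the replicate block. Genes called for the slope on Myc numbered 1 (Srm) with the lower 50% of genes left out, 1 with the floor of 16 and 1 with the trended, robust model, where 110, 20 and 39 of all genes were called. Array weights gave 18, where 5499 of all genes were called, and the cause was not tested. With the replicate block the median correlation with Myc was 0.704 in place of 0.524, and 0 members were called in either comparison. Same-numbered animals did not deviate together (correlations from -0.082 to 0.073). Among genes given sample by sample, differences turned sign for Dkc1 (0.006 with probe sets of unique ID first), Wdr12 (-0.119 with the mean of probe sets) and Ebna1bp2 (-0.028 as deposited, -0.062 with arrays centred on the median, -0.793 with the mean of probe sets, and -0.121 to -0.007 without single animals). Another 10 members turned sign under 1 or more settings, most often Rrs1 (10 settings) and Polr1a (5). Of 320 values of the 16 other genes given sample by sample, 298 kept direction and side of the threshold, 11 passed it and 11 turned sign.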
